A study of Mus musculus with 6 samples.

Results

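Oncofetal and heterochronic timing genes are a set of RNA-binding, chromatin and nuclear receptor genes that are active in the early embryo, decline as tissues mature and return in some tumours. The members were fixed by name as Igf2bp1, Igf2bp2, Igf2bp3, Hmga2, Lin28a, Lin28b, Nr6a1 and Trim71, and each was taken from array rows whose annotation names that gene alone. Of these 8 genes, 7 had such a row, of 19938 genes with one on the array. Igf2bp1 had 2 rows, which gave 8 member rows of 28856 rows in all, and Igf2bp2 was not analysed here. No filter on low values was applied, so every member row entered the comparison. RNA came from entire mouse brains, dissected at embryonic day 16.5, 3 of the wild-type genotype and 3 of the Tdp2Δ1-3 genotype, 1 array per sample. Tdp2Δ1-3 is a mutant allele of Tdp2, the phosphodiesterase that frees DNA ends from trapped topoisomerase II, and the labels state neither zygosity nor strain background. The samples of a genotype are called biological replicates in their titles.

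Igf2bp1, Igf2bp3 and Hmga2 stood higher in all 3 mutants than in any wild type, by 1.23-fold to 1.41-fold, while Lin28a, Lin28b, Nr6a1 and Trim71 overlapped between the genotypes. The set was proposed with this comparison in view, so the values of the members are a description and carry no test of their own. A row was called at a limma adjusted p under 0.05 in the fit over all 23410 rows that name a gene. By that rule 4 of the 8 member rows were called, all higher in the mutants, where 6.47% of all rows were called, 2.34% higher and 4.13% lower. Groups did not overlap in the same 4 member rows, against 25.7% of all rows, 13.1% with the mutants above and 12.6% with the mutants below. Because the members were chosen on this contrast, nothing is read from these counts. None of the 150 rows called at the 1.5-fold limit of the series text (0.641% of rows) was a member row. Fits with 1 array left out called unlike shares of all rows, and counts from them below are to be read beside these shares. Without wild-type replicates 1, 2 and 3 in turn, 3.1%, 1.43% and 4.98% of all rows were called. Without mutant replicates 1, 2 and 3 in turn, the shares were 10.7%, 0.619% and 2.55%.

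The biology that links these genes centres on let-7, a family of microRNAs that accumulates as cells mature. LIN28 proteins bind let-7 precursors and block their maturation, and mature let-7 in turn represses messengers of the early state, among them Lin28b, Hmga2, Trim71 and the Igf2bp genes. In the developing cortex this loop is known for setting how long neural progenitors keep their early, self-renewing character. The let-7 sequences are shown because every arm that guides repression carries the same seed, the bases 2 to 8 that pair with a target, printed in capitals. They are RefSeq records of build GRCm38.p6.
let-7a-5p: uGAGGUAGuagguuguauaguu
let-7d-5p: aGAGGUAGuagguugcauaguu
let-7e-5p: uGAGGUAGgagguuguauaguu
let-7g-5p: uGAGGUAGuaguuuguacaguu
The hairpin precursor of let-7g is shown as an example of a LIN28 substrate, with the letters GGAG of its loop, the motif LIN28 is known to bind, in capitals.
let-7g hairpin: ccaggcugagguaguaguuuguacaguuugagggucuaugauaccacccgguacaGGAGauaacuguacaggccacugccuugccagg

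Each array value was a log2 value centred on the median of its row over the 6 arrays, so a value of 0 is the middle of the 6 brains and levels of different genes cannot be compared. Centring also means that a gene at the array's background cannot be told apart from a gene that is expressed and unchanged, and that the brain origin of the RNA could not be checked from marker levels. Array medians lay between -0.0108 and 0.014, and the number of arrays limits the precision. Tdp2 itself was lower in the mutants, at 0.90, 1.10 and 1.34 in wild-type brains against -1.05, -0.90 and -0.94 in mutant brains (difference -2.07 ± 0.10, SE, n = 3 per genotype). Whether its row covers the deleted part of the gene is not given in the sources used here. In RNA from whole brains, fewer cells of a type and less RNA per cell cannot be told apart.

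The IGF2BP proteins bind messenger RNAs and protect, transport or hold back the translation of them, and IGF2BP1 is known in fetal neural progenitors. The Igf2bp1 row with most accessions, row 1, read -0.21, -0.22 and -0.25 in wild-type replicates 1, 2 and 3. It read 0.24, 0.33 and 0.21 in mutant replicates 1, 2 and 3. The 3 brains of a genotype lay close together, with SDs of 0.02 (wild type) and 0.06 (mutant), and the gap between the genotypes was 0.41. The mutant mean minus the wild-type mean was 0.48 ± 0.05 (SE, n = 3 per genotype), which is 1.40-fold with a 95% interval from 1.30 to 1.51.

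Row 2 of Igf2bp1, which rests on 1 accession against 3 for row 1, had the same order of genotypes and a smaller gap. It read -0.19, -0.12 and -0.08 in wild-type brains against 0.24, 0.08 and 0.19 in mutant brains. The lowest mutant, replicate 2, lay 0.16 above the highest wild type, replicate 3. The difference was 0.30 ± 0.06 (SE, n = 3 per genotype), 1.23-fold with a 95% interval from 1.13 to 1.34. The brain with the highest value in row 1, mutant replicate 2, was the lowest mutant in row 2. With 1 array left out, row 1 was called in 6 of 6 fits and row 2 in 2 of 6, those without wild-type replicate 3 or mutant replicate 1, with differences from 0.27 to 0.34 over the 6 fits.

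Igf2bp3, a paralogue best known from fetal tissue and tumours, had the largest difference among the members. Its wild-type values were -0.45, -0.25 and -0.19, and replicate 1 was the lowest of all 6 brains. Its mutant values were 0.19, 0.21 and 0.20, an SD of 0.01. The difference was 0.49 ± 0.07 (SE, n = 3 per genotype), 1.41-fold with a 95% interval from 1.26 to 1.57. It was 0.41 without wild-type replicate 1, and Igf2bp3 was called in 5 of 6 fits with 1 array left out, the exception being the fit without mutant replicate 2 (difference 0.49). That fit called 0.619% of all rows.

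Hmga2 encodes a chromatin protein that binds the minor groove of AT-rich DNA and is known to promote self-renewal of young neural stem cells. Its values were -0.25, -0.17 and -0.20 in the wild types. They were 0.25, 0.28 and 0.17 in the mutants. No brain came near the other genotype, with 0.34 between the closest pair. The difference was 0.44 ± 0.05 (SE, n = 3 per genotype), 1.36-fold with a 95% interval from 1.26 to 1.47. Hmga2 was called in 6 of 6 fits with 1 array left out, and its difference lay between 0.42 and 0.47 over 13 alternative fits.

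**Figure D1:**
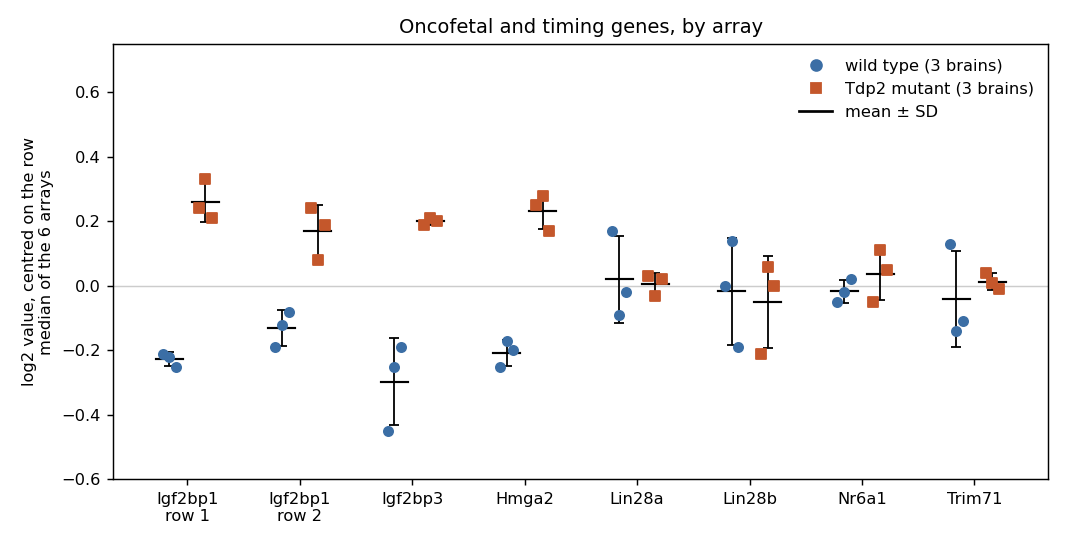
Centred log2 values (vertical axis) of the 8 member rows (horizontal axis) in 3 wild-type brains (circles) and 3 Tdp2 mutant brains (squares), replicates 1 to 3 from left to right within a group, with the mean and SD of each genotype in black. The genotypes are apart in both Igf2bp1 rows, Igf2bp3 and Hmga2, with gaps from 0.16 to 0.41, and overlap in Lin28a, Lin28b, Nr6a1 and Trim71.

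Lin28a and Lin28b, the RNA-binding proteins that hold back let-7, had no such gap. Lin28a read 0.17, -0.09 and -0.02 in wild-type brains against 0.03, -0.03 and 0.02 in mutant brains. All 3 mutants lay within the range of the wild types, whose replicate 1 was the highest brain. The difference was -0.01 ± 0.07 (SE, n = 3 per genotype), with a 95% interval from -0.17 to 0.15. Lin28b read 0.00, 0.14 and -0.19 in wild-type brains against -0.21, 0.06 and 0.00 in mutant brains. Its brains spread widely within each genotype, with SDs of 0.17 and 0.15. The difference was -0.04 ± 0.10 (SE, n = 3 per genotype), with a 95% interval from -0.26 to 0.19. The sign was not stable in either gene: it turned in 3 of 13 alternative fits for Lin28a and in 2 of 13 for Lin28b.

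Trim71, an RNA-binding ubiquitin ligase of the TRIM-NHL family that is known as a let-7 target in worms and mice, read 0.13, -0.14 and -0.11 in the wild types. Its mutants read 0.04, 0.01 and -0.01 and lay inside that range. As in Lin28a, wild-type replicate 1 was the highest brain. The difference was 0.06 ± 0.07 (SE, n = 3 per genotype), with a 95% interval from -0.11 to 0.22, and it was 0.14 without wild-type replicate 1. Nr6a1, an orphan nuclear receptor of the early embryo also called germ cell nuclear factor, read -0.05, -0.02 and 0.02 in wild-type brains against -0.05, 0.11 and 0.05 in mutant brains. Mutant replicates 2 and 3 were the highest brains, and replicate 1 was as low as the lowest wild type. The difference was 0.06 ± 0.05 (SE, n = 3 per genotype), with a 95% interval from -0.07 to 0.18.

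**Figure D2:**
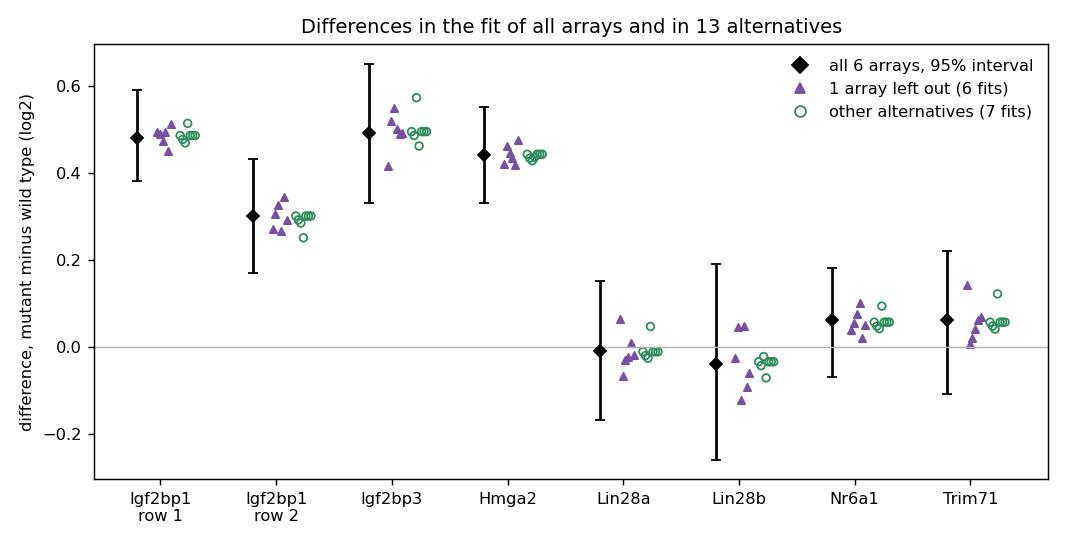
Difference between genotypes, mutant minus wild type on the log2 scale (vertical axis), for the 8 member rows (horizontal axis). Diamonds with bars give the fit of all 6 arrays with its 95% interval, triangles the 6 fits that leave out 1 array and open circles the other 7 alternatives. The rows of Igf2bp1, Igf2bp3 and Hmga2 lie between 0.25 and 0.57 in all of these fits, and the other 4 members between -0.12 and 0.14.

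Among the members, each row's closest partner over the 6 arrays was found by Pearson's r, as a description only, because arrays of the same genotype share whatever separates the genotypes. Igf2bp1 row 1 and Hmga2 were each other's closest (r = 0.99, n = 6 arrays), and Igf2bp3 was closest to Hmga2 (r = 0.96). With the genotype means subtracted, these pairs had r = 0.61 and 0.49, and the 2 rows of Igf2bp1 had r = -0.79. Lin28a and Trim71 were closest to each other (r = 0.89, and 0.96 with the means subtracted), with wild-type replicate 1 the highest brain in both. Igf2bp1 row 2 was closest to Igf2bp3 (r = 0.95), Nr6a1 to Igf2bp3 (r = 0.58) and Lin28b to Nr6a1 (r = 0.28). With the means subtracted, these had r = 0.51, 0.46 and 0.39. Averaged per brain, Igf2bp1, Igf2bp3 and Hmga2 stood at -0.30, -0.20 and -0.18 in wild-type brains and at 0.23, 0.23 and 0.19 in mutant brains. The 5 other genes with the profile most like this average (r from 0.995 to 0.998, n = 6 arrays) were H2bc1, H3c4, Gadd45g, Cep55 and Tead2. The average is of called genes that split by genotype, so this ranking favours rows with the same split. Of all rows, 13.1% had every mutant above every wild type, and the 5 genes are named as a description only. H2bc1, H3c4 and Gadd45g lie on chromosome 13, the chromosome of Tdp2, while Cep55 lies on 19 and Tead2 on 7. The part of that position in their values was not tested. H2bc1 and H3c4 are histone genes, whose rows can share sequence with near-identical copies, and they differed by 0.25 and 0.27. Gadd45g, a growth arrest and stress gene, differed by 0.63, the cytokinesis gene Cep55 by 0.58 and Tead2, a DNA-binding partner of YAP, by 0.52.

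The let-7 genes themselves could be followed in 10 rows of let-7 and miR-98 genes and 6 rows of the miR-125, miR-99 and miR-100 genes that lie beside some of them. None of these 16 rows was called (limma gave 2 of them an unadjusted p under 0.05), and their median difference was 0.0072, against 0.0135 over all rows. Mirlet7d read 0.02, 0.05 and 0.05 in wild-type brains against -0.08, -0.09 and -0.02 in mutant brains, a difference of -0.10 ± 0.04 (SE, n = 3 per genotype, limma adjusted p = 0.199). Mirlet7g was also below every wild type in every mutant, by -0.10 (limma adjusted p = 0.288), and Mirlet7e had a difference of 0.20 with overlapping groups (limma adjusted p = 0.22). Mirlet7c-1 had the largest difference, -0.32 ± 0.19 (SE), with 1 mutant brain at -0.70 and the other two at -0.16 and 0.13. Without mutant replicate 1, Mirlet7e was the 1 row of the 16 that was called. Whether these rows report the hairpin, its longer precursor or a host transcript is not given in the sources used here, and the mature arms printed above were not measured as such.

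**Figure D3:**
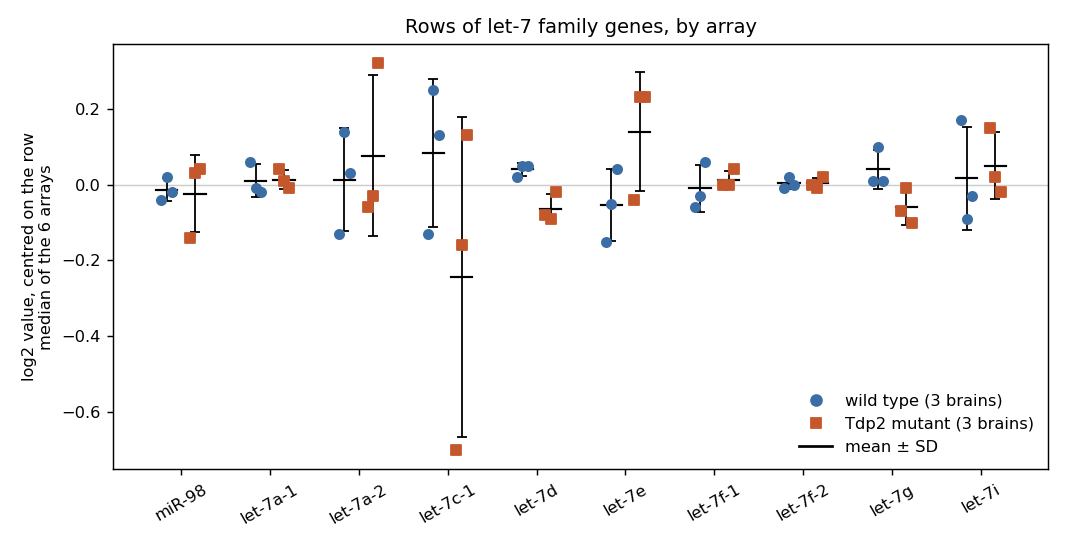
Centred log2 values (vertical axis) of the 10 rows of let-7 and miR-98 genes (horizontal axis) in 3 wild-type brains (circles) and 3 Tdp2 mutant brains (squares), with the mean and SD of each genotype. The groups are apart in let-7d and let-7g, where the mutants are lower by 0.10, and no row was called.

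The genes of let-7 precursor processing and silencing, enzymes and partner proteins among them, gave 1 call with all arrays. Of 22 measured, 1 rose and 21 did not pass (6 of them with a limma p under 0.05 before adjustment). The median difference was 0.06, with a range from -0.20 to 0.21 and 16 of the 22 above 0. Per-brain medians lay between -0.05 and -0.01 in wild-type brains against between 0.01 and 0.06 in mutant brains. The gene that rose was Tut1, a terminal uridylyltransferase that acts mainly on small nuclear RNA (0.20 ± 0.04, SE, limma adjusted p = 0.0395), and it was called in 0 of 6 fits with 1 array left out. Tut4 and Tut7, the enzymes that add uridines to let-7 precursors held by LIN28A, had differences of 0.21 and 0.14 (limma adjusted p = 0.122 and 0.274). Tut4 read -0.20, -0.02 and -0.02 in wild-type brains against 0.02, 0.21 and 0.16 in mutant brains, so its groups were apart by 0.04. The nuclease Dis3l2, which degrades the uridylated precursors, had a difference of 0.00 ± 0.05 (SE), with a 95% interval from -0.11 to 0.11. Drosha and Dicer1, which make the successive cuts of microRNA maturation, had differences of -0.06 and 0.03.

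Other genes known as let-7 targets changed in both directions. Of 35 measured, 7 rose, 1 fell and 27 did not pass, with a median difference of 0.08 beside the 0.0135 of all rows. Ccnd1, the D-type cyclin of G1 phase, read -0.23, -0.22 and -0.17 in wild-type brains against 0.22, 0.18 and 0.17 in mutant brains. It rose by 0.40 ± 0.04 (SE, n = 3 per genotype, limma adjusted p = 0.00477), and it kept its call with any 1 array left out. The related cyclin gene Ccnd2 rose by 0.37, the G1 kinase gene Cdk6 by 0.31 and the phosphatase gene Cdc25a by 0.21. The replication nuclease gene Dna2 rose by 0.35, the zinc finger gene Plagl2 by 0.30 and Nr2e1, the orphan receptor TLX of neural stem cells, by 0.58. Gatm, a creatine synthesis gene, fell by 0.54.

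Several of the rises lie in cell cycle genes, which rose widely in these arrays, and the part of that in the let-7 target counts was not tested. Without wild-type replicate 2 or mutant replicate 2, Ccnd1 was the only let-7 target called. Leaving out mutant replicate 3 gave 3 rises and 1 fall, and mutant replicate 1 gave 8 and 2. Cdc25a and Dna2 were each called in 1 of 6 such fits, that lacking mutant replicate 1. The oncogene Myc read 0.04, 0.03 and 0.13 in wild-type brains against -0.03, -0.34 and -0.42 in mutant brains. Its difference of -0.33 ± 0.09 (SE) did not pass (limma adjusted p = 0.0855), and mutant replicate 1 lay near the wild types. Myc ranged from -0.44 to -0.02 over the alternatives and was called when mutant replicate 1 was left out. Mycn, Igf1r and Arid3b, further targets of let-7, had differences of -0.10, 0.03 and 0.16 and did not pass.

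**Figure D4:**
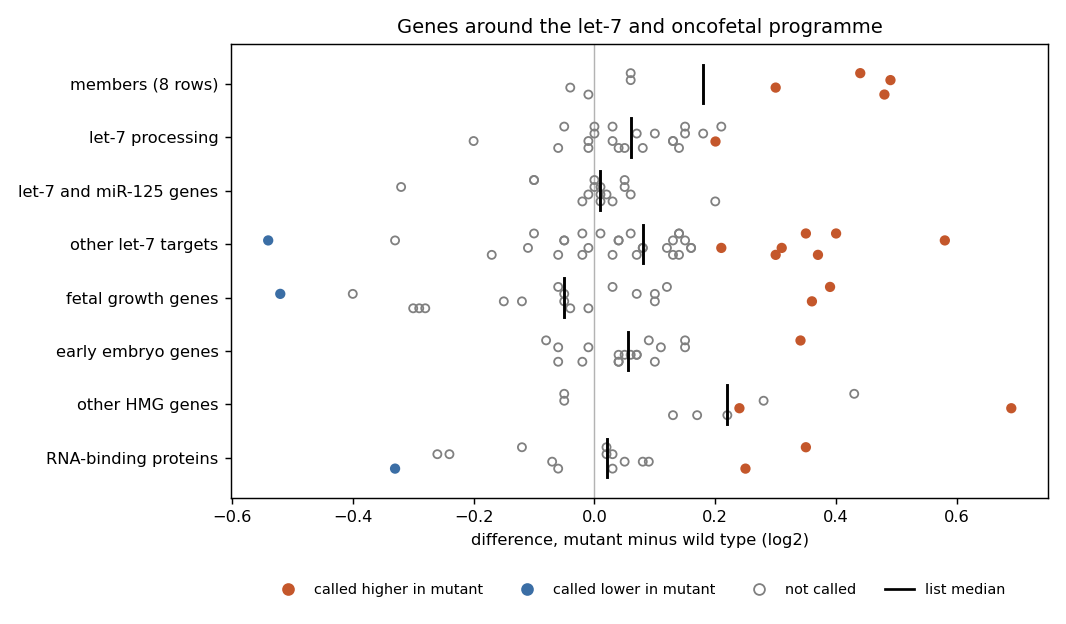
Difference between genotypes, mutant minus wild type on the log2 scale (horizontal axis), of each gene in the member set and in 7 lists around it (vertical axis). Filled points passed an adjusted p under 0.05, open points did not, and black bars are medians. The let-7 genes have a median of 0.0072 with none called, the other let-7 targets a median of 0.08 with 7 higher and 1 lower, and the other high mobility group genes a median of 0.22.

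IGF2BP proteins take their name from the messenger of the fetal growth factor Igf2, which they bind. Igf2 read 0.26, 0.05 and -0.05 in wild-type brains against 0.05, -0.35 and -0.34 in mutant brains. Mutant replicates 2 and 3 were lower than all other brains, and replicate 1 lay among the wild types. The difference was -0.30 ± 0.12 (SE, n = 3 per genotype) and did not pass (limma adjusted p = 0.187). Igf2 is also abundant in meninges and choroid plexus. In the same arrays 3 of 13 meningeal and fibroblast genes fell, Ogn by 0.54, Pdgfra by 0.58 and Slc6a13 by 0.43. The other 10 did not pass, and 2 of them, Lum (0.08) and Crabp2 (0.10), had differences above 0. The median difference was -0.23, with per-brain medians from -0.01 to 0.13 in wild-type brains against from -0.22 to 0.02 in the mutants. The meningeal falls numbered 0 when mutant replicate 2 was left out, 1 when wild-type replicate 2 was and 5 when mutant replicate 1 was. In the same order, these fits called 0.619%, 1.43% and 10.7% of all rows, and the meningeal median was -0.17, -0.24 and -0.30. None of 9 choroid plexus genes was called (1 with a limma p under 0.05 before adjustment), with a median of -0.067. Of these 9, Otx2 rose when wild-type replicate 1 was left out, and Aqp1 and Sostdc1 fell when mutant replicate 1 was. The part of either tissue in the Igf2 values was not tested.

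Of 19 fetal growth genes, imprinted genes and insulin-like growth factor genes, 2 rose, 1 fell and 16 did not pass, with a median of -0.047. Grb10, an imprinted adaptor that restrains insulin and growth factor signalling, rose by 0.39 ± 0.04 (SE, limma adjusted p = 0.00581). The imprinted zinc finger gene Plagl1 rose by 0.36 and Igf1, the insulin-like growth factor of later growth, fell by 0.52. Grb10 kept its call with any 1 array left out. Plagl1 lost it when mutant replicate 2 or 3 was left out, and Igf1 when wild-type replicate 2 or mutant replicate 2 or 3 was. Leaving out mutant replicate 1 gave 4 falls in this list, Igf2 among them. None of 10 other oncofetal genes, such as Afp and Gpc3, was called (1 with a limma p under 0.05 before adjustment), with a median of -0.032, and 1 of them, Igf2, fell when mutant replicate 1 was left out.

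The genes that work beside IGF2BP proteins in messenger granules, or are bound by them, gave no call with all arrays. Of 16 measured, none passed (5 with a limma p under 0.05 before adjustment), with a median of 0.016, and 2 fell, Stau2 and Myc, when mutant replicate 1 was left out. The helicase gene Dhx9 and the stability factor Elavl1 had differences of 0.22 and 0.17 (limma adjusted p = 0.0591 and 0.0528), and Stau2, a transport protein of neuronal granules, one of -0.17. Of 15 RNA-binding protein genes of neural progenitors and neurons, 2 rose, 1 fell and 12 did not pass. Ptbp1, the splicing repressor that neurons switch off, rose by 0.35 ± 0.05 (SE, limma adjusted p = 0.00874), and Msi1, a translational regulator of neural stem cells, rose by 0.25. Rbfox1, a splicing factor of neurons, fell by 0.33. Leaving out mutant replicate 2 removed all 3 calls, and leaving out mutant replicate 1 gave 2 rises and 3 falls. With any wild-type array left out, 1 of the 15 rose, and Rbfox1 was called in 2 of 6 fits.

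Among relatives of the other members, of 9 other high mobility group genes 2 rose and 7 did not pass, with a median of 0.22 and a range from -0.05, in Hmgb4 and Hmgn3, to 0.69. Hmgb2, a chromatin protein of dividing cells, rose by 0.69 ± 0.11 (SE, limma adjusted p = 0.0142), and Hmgn2, a nucleosome-binding protein, by 0.24. Leaving out wild-type replicate 2 or mutant replicate 2 removed both calls, and Hmgn2 also lost its call when wild-type replicate 1 or mutant replicate 3 was left out. The list had 3 rises when wild-type replicate 3 was left out and 4 when mutant replicate 1 was. Hmga1, the closest relative of Hmga2, was not analysed here. Of 10 orphan nuclear receptor genes, Nr2e1 rose and Rorb, a receptor of cortical layer neurons, fell by 0.33, and both lost their calls when wild-type replicate 2 or mutant replicate 2 was left out, Nr2e1 also when mutant replicate 3 was. No TRIM-NHL gene or related timing gene was called among 9 (3 with a limma p under 0.05 before adjustment), with differences of -0.26 and -0.17 in the neuronal ligase genes Trim3 and Trim32. Trim3 was called when mutant replicate 1 was left out.

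Genes of pluripotent cells and the early embryo were largely without a call, with 1 of 18 higher and a median of 0.059. That gene was Tfap2c, a transcription factor of trophoblast, germ cells and cortical progenitors, at 0.34 ± 0.08 (SE, limma adjusted p = 0.0497). It was called in 2 of 6 fits with 1 array left out, those lacking wild-type replicate 3 or mutant replicate 1. Pou5f1 and Nanog, core pluripotency factors, had differences of -0.06 and 0.06, and Sall4, a fetal zinc finger factor, one of 0.15.

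The members were set beside markers of progenitor age and of the cell types that whole brain holds. Of 24 genes listed as rising when neural progenitors age and turn to making glia, 9 fell, 1 rose and 14 did not pass, with a median of -0.20. The list holds genes of maturing glia as well as transcription factors of progenitors, and the part of each in the median was not tested. Omg, a myelin and neuronal surface gene, fell by 0.47, the neurotrophin receptor gene Ntrk2 by 0.49, the glial adhesion gene Hepacam by 0.64 and the matrix gene Tnc by 0.44. Of the nuclear factor I genes in that list, Nfix fell by 0.26 and Nfia rose by 0.31. Nfib had a difference of 0.19 and did not pass, though it was called when mutant replicate 1 was left out. The transcription factor genes Sox9 and Zbtb20 of the same list had differences of 0.12 and -0.06, neither called. Omg kept its call with any 1 array left out. Nfia was called in 1 of 6 such fits, that lacking mutant replicate 1. The list had 4 falls when wild-type replicate 1 or mutant replicate 3 was left out, 2 when it was wild-type replicate 2 and 1 when it was mutant replicate 2. Of 17 radial glia genes, 6 rose and 11 did not pass, with a median of 0.20 and a range from -0.26 to 0.60. Differences were above 0 in 12 of them, and below 0 in others such as Slc1a3 (-0.26) and Ptprz1 (-0.17), neither called. Prom1, a membrane protein of neural stem cells, rose by 0.42 and kept its call with any 1 array left out. Leaving out wild-type replicate 1 gave 4 radial glia rises, and wild-type replicate 2 or mutant replicate 2 gave 1. Mutant replicate 1 gave 3 and mutant replicate 3 gave 2.

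Cycling cell genes moved in the same arrays and in the same direction as Igf2bp1, Igf2bp3 and Hmga2. Of 24 measured, 23 rose, with a median of 0.55 and a range from 0.27 to 0.78. Their per-brain medians were -0.40, -0.20 and -0.19 in wild-type brains against 0.18, 0.35 and 0.37 in mutant brains. Wild-type replicate 1, the lowest brain in the cycling genes, was also the lowest in Igf2bp1 row 2, Igf2bp3 and Hmga2, and wild-type replicate 3 was the lowest in Igf2bp1 row 1. The mutant with the lowest cycling median, replicate 1, was the lowest mutant in Igf2bp3 (0.19 against 0.21 and 0.20), while the lowest mutant was replicate 2 in Igf2bp1 row 2 and replicate 3 in Igf2bp1 row 1 and Hmga2. Without mutant replicate 2 the cycling median was 0.52 and 2 genes were called, in the fit that called 0.619% of all rows. The part of dividing cells, radial glia or progenitor age in the values of the members was not tested.

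**Figure D5:**
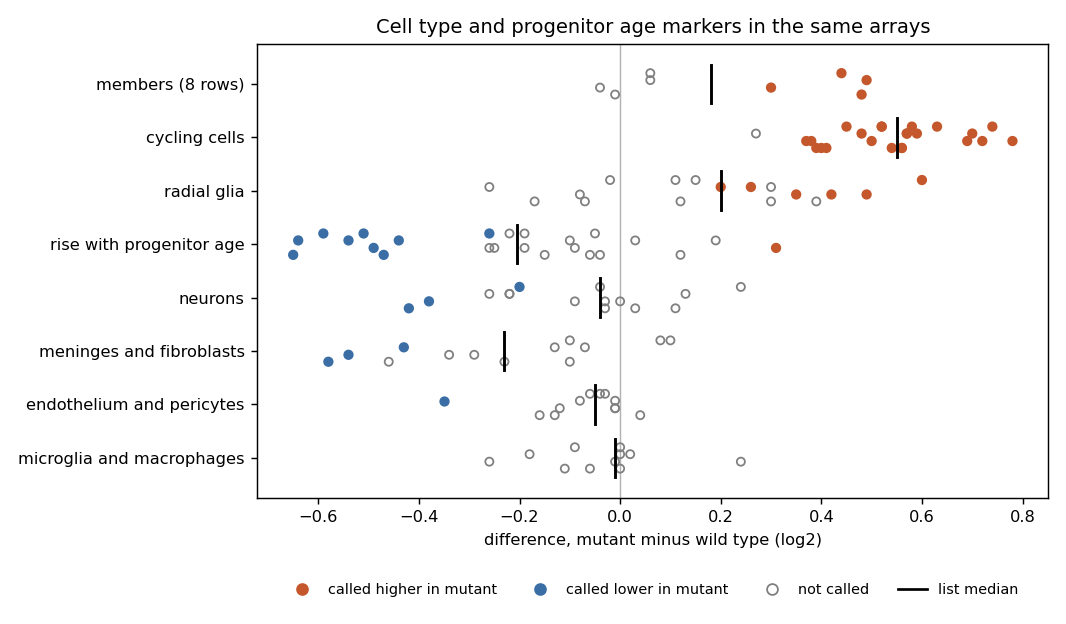
Difference between genotypes, mutant minus wild type on the log2 scale (horizontal axis), of each member row and of each gene in 7 lists of cell type and progenitor age markers (vertical axis). Filled points passed an adjusted p under 0.05, open points did not, and black bars are medians. The medians are 0.55 in cycling cell genes, 0.20 in radial glia genes and -0.20 in genes listed as rising with progenitor age.

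Markers of other cell types were measured as well. Of 15 neuron genes 3 fell, namely Syt1, Gad1 and Snap25, with a median of -0.04, and none of the 15 was called when wild-type replicate 1 or 2 or mutant replicate 2 was left out. Of 12 endothelial and pericyte genes Cldn5 fell, a call kept in 2 of 6 fits with 1 array left out, with a median of -0.05. None of 11 microglia and macrophage genes was called (3 with a limma p under 0.05 before adjustment), although C1qc fell when mutant replicate 1 was left out. Nearest to a call with all arrays was Trem2, with a difference of 0.24 (limma adjusted p = 0.064). A list of 11 red-cell genes matters here because Lin28b and the Igf2bp genes are also active in fetal blood. Of these 11, Hbb-y and Hba-x, globins of the embryo, rose and 9 did not pass, with a median of 0.05. Hbb-bh1, another globin of the embryo, was among those 9, with a difference of 0.14 (limma adjusted p = 0.126). The rise was 13.8-fold in Hbb-y (3.79 ± 0.10 on the log2 scale, SE, limma adjusted p = 5.44e-06) and 2.72-fold in Hba-x (1.44 ± 0.07, SE, limma adjusted p = 0.00035), more than in any member, and both kept their calls with any 1 array left out. The per-brain medians of the red-cell list lay between -0.06 and -0.03 in wild-type brains against between 0.00 and 0.03 in the mutants. The part of blood cells in the values of the members was not tested.

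The promoters of Igf2bp3 and Hmga2 are shown because both genes were higher in all 3 mutants, from 250 bases before to 50 bases after the start, as RefSeq gives them on GRCm38.p6. Igf2bp1, also higher in all 3 mutants, had no promoter window in the sources used here and is absent from the motif counts below. Capitals mark CACGTG, an E-box bound by MYC and related factors, CCAAT, and GGGCGG, a GC box, each on either strand.
Igf2bp3 promoter, chr6:49214905-49215204, minus strand: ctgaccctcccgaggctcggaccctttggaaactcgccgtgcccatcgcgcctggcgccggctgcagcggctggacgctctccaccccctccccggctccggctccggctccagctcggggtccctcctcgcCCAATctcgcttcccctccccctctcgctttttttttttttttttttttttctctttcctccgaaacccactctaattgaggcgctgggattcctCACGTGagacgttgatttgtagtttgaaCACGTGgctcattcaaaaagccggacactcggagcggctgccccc
Hmga2 promoter, chr10:120476420-120476719, minus strand: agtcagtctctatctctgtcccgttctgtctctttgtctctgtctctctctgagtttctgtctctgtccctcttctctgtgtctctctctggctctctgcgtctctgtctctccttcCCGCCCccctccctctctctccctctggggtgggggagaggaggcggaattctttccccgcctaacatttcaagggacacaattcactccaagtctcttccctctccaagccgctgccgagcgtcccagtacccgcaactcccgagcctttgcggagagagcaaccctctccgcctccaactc
The window of Igf2bp3 held CACGTG at 2 places, starting at -23 and 6 from the start, and CCAAT once, with 25 CpG pairs. Among 32851 promoter windows of the same length, 7.15% held CACGTG, 0.594% held it at least at 2 places and 37.4% held CCAAT. The window of Hmga2 held GGGCGG once, at -133, a motif found in 35.7% of windows, and 12 CpG pairs. Of the members that were not called, Lin28b held CACGTG once, and Lin28a, Trim71 and both windows of Nr6a1 did not hold it. CCAAT was also in the windows of Lin28b and Trim71, and GGGCGG in those of Lin28a, Trim71 and Igf2bp2. The median window had 7 CpG pairs, and the members with a window had between 8 and 47, the most in Igf2bp2. No member window held TTTGGCGC or TTTCCCGC, letters bound by E2F factors, or TCAAGGTCA, the element of Nr6a1, found in 0.514%, 1.07% and 0.423% of windows. Nor did any hold TATAAA, found in 13.6%. A match is a match of letters and not evidence of binding.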

How the data were processed

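Total RNA of embryonic brain was hybridised to Affymetrix Mouse Gene 1.0 ST arrays, per the labels' protocols. The deposited values are log2 values that the authors normalized with RMA, per the series text. Affymetrix Expression Console is named in the submitters' processing notes. Each row's median was 0 (largest deviation 5e-07), so rows had been centred, which no label describes, and no filter on low values was possible. The genome build is not given in the sources used here.

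Of 28856 rows, 23410 named at least 1 gene and were fitted with limma 3.58.1 in R 4.3.3 (lmFit and eBayes, two-sided), with Benjamini-Hochberg adjustment over those rows. Rows were named through the platform annotation, with symbols updated from RefSeq. Errors of differences are moderated standard errors. Lists used 1 row per gene, that with most accessions, and 303 of 324 listed genes were measured. The genes named are the members, Tdp2, up to 6 called genes of smallest p in each list, a few fixed pathway genes and the 5 genes with the profile most like the called members. Others were named after their values were seen. The members and the 20 lists were chosen with earlier results of these data known. The steps were tested on simulated data. The alternatives tried were a block for the replicate number, leaving out each array, equal array medians, cyclic loess, array weights, all rows, rows outside X and Y, a robust prior, the 1.5-fold limit and the mean of a gene's rows. Figures were drawn with matplotlib 3.10.9.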

Additional observations from a re-analysis of the deposited data

How the results depend on the processing

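The count of member rows called was 4 with all arrays, the same under the 7 alternatives that keep all 6 arrays without a fold limit, and between 2 and 4 with 1 array left out. It was 0 with the 1.5-fold limit, where the count over all rows was 150. The count over all rows was 1515 with all arrays, 5425 with array weights and between 145 (without mutant replicate 2) and 2501 (without mutant replicate 1) with 1 array left out. The difference of each member stayed within 1 SD of its value in all 13 alternative fits, but most could not have shown otherwise. Leaving out 1 array cannot move a group mean that far. The replicate block, all rows, rows outside X and Y and the robust prior leave each difference as it was. Only equal array medians, cyclic loess and array weights could have moved it further. List medians moved by less than the spread between replicates in 258 of 280 alternatives and by more in 22, and list counts moved by over 1.5 times in 124 of 520.

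With the replicate number as a block 2400 rows were called in all, and the 4 member rows stayed called. The series text speaks of pairs of brains but does not say that the numbers mark them. Deviations of same-numbered brains from their genotype means correlated at 0.209, 0.0472 and 0.198 over rows, for replicates 1, 2 and 3. Those of differently numbered brains correlated between -0.224 and 0.0575, so the brains numbered 1 and those numbered 3 were more alike than any of these. Deviations sum to 0 within a genotype in each row, so these correlations are bound to each other and are a description only. The fit of all arrays did not use the numbers as pairs because the pairing is not stated. Of genes named as not passing, Igf2, Tut4, Dhx9, Trim3, Otx2 and Slc1a3 passed under the replicate block. Trim3, Stau2, Otx2 and Ptprz1 passed after cyclic loess, and Trim3 with array medians set equal. With array weights Mirlet7d, Mirlet7e, Tut4, Myc, Igf2, Gpc3, Dhx9, Elavl1, Stau2, Trim3, Trim32, Sall4, Otx2, Aqp1, Sostdc1 and C1qc passed. So did Slc1a3, Ptprz1, Trem2, Nfib and Hbb-bh1.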
